A study of Rattus norvegicus with 9 samples.

Results

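The genes described here encode the proteins of the cytosolic ribosome, the particle that translates nuclear messenger RNAs. Members were all probe sets whose single platform gene symbol began with Rpl or Rps followed by a digit, or was Rplp0, Rplp1, Rplp2 or Rpsa, with the Rps6k kinases left out. The rule gave 50 probe sets for 44 genes, of 12783 probe sets with 1 symbol for 10411 genes. Of the member genes, 30 encode proteins of the large subunit or paralogs of them and 14 proteins of the small subunit or paralogs.

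RNA from whole rat liver was hybridised to 9 arrays in 3 groups of 3. Going by their names, Sham-Sham rats were controls with a pair of sham procedures, Sham-CLP rats had CLP after a sham burn, and Burn-CLP rats had a burn and CLP. CLP is not spelled out in the labels. In rodent injury work the letters stand for cecal ligation and puncture, a model of abdominal sepsis. Strain, sex, age, burn size, times and the number of rats behind an array were not given. Since nothing states that each array stands for its own rat, p-values set group differences against a spread between arrays that may be technical.

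A ribosome has a small subunit, which reads the messenger RNA, and a large subunit, which joins amino acids. Their proteins are needed in equal numbers and are imported into the nucleolus, where they are built onto ribosomal RNA. Most of their messenger RNAs start with a C followed by a run of C and T (U in the RNA), the 5′ terminal oligopyrimidine tract. Through it mTOR and the RNA-binding protein Larp1 control how strongly these RNAs are translated. The liver devotes much of its RNA to protein secretion, and acute phase protein synthesis adds to that load after injury.

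The starts of a few member genes are shown because the pyrimidine run is the feature that the family shares and that the choice of members did not use. RefSeq (assembly GRCr8) held the start of 39 of the 44 genes, and Rpl27, Rpl23a, Rpl7, Rpl30 and Rps29 were not among them. Each line gives 30 bases of the sense strand, 12 before the annotated start and 18 from it on. Capitals mark the longest run of C and T within these 30 bases.
Rps23, chr2:23814505-23814534 (+): gtccttcctgCCTCTCTTCTCTCTTTCTCT
Rpl34, chr2:221962266-221962295 (-): CTTCCTTTTCCTCTTCCggggacggtgctt
Rplp0, chr12:46718373-46718402 (-): cgcaccgcaCTTCTCTCgccaggcgtcctc
Rpl12, chr3:36661928-36661957 (+): gcaacatccgTCTTTTCggctttcggttcg
Rps6, chr5:106420523-106420552 (-): gCCTCCTaggcggtcggctgtgtcaagatg
Rpl7l1, chr9:21695706-21695735 (+): tgcagatgcattgtgggaagCCTTTaactc
The marked run spans the annotated start in Rps23, Rpl34, Rplp0 and Rpl12. In Rps6 it lies before the start, and in Rpl7l1, a paralog of Rpl7, after it. Bases outside those shown can hold a longer run. Within 30 bases on each side of the start the longest was 10 in Rps6, 20 in Rpl34 and 21 in Rps23. The marked runs of these genes have 6, 17 and 20 bases. Over a window of 60 bases, 30 on each side of the start, a run of at least 8 C or T on the sense strand was found in 29 of 39 member genes (74.4%) and in 7774 of 33469 genes of the whole table (23.2%). The motif CTTTCC was present in 10 of 39 members (25.6%) against 2.59% of all genes, and on the other strand, as GGAAAG, in 0 of 39 against 2.78%. Since CTTTCC is itself made of C and T, it can be part of such a run.

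Signals were used on a linear scale as deposited, with every array at a common trimmed mean, and after quantile normalization, which gives every array the same distribution. Changes are differences of mean log2 signal with their standard error (SE) from limma over all probe sets, and a probe set was called at a Benjamini-Hochberg adjusted p under 0.05. Values are from the quantile scaling unless the deposited one is named. Of the 50 member probe sets 49 were tested, for 43 genes, and 45 lay above the floor of 64.3 on all 9 arrays. The probe set left out was that of Rpl3l, the striated-muscle paralog of Rpl3, which read 9.90 to 30.3, below the floor on every array. In bulk liver, a change in the number of cells of a type and a change in RNA per cell cannot be told apart.

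No member was called in any of the 3 comparisons under either scaling. The called share of all 13535 probe sets tested was itself small, at 0.0591% for Sham-CLP against Sham-Sham, 0.746% for Burn-CLP against Sham-Sham and 0.0148% for Burn-CLP against Sham-CLP. With the deposited scaling it was 0.0296%, 0.680% and 0.00739% of 13523 probe sets. The smallest adjusted p of a member by limma was 0.453, 0.157 and 0.363 in the 3 comparisons. At an unadjusted p under 0.05, limma counted 0, 4 and 6 of the 49 members, all of them higher in Burn-CLP, beside 11.7%, 19.9% and 9.09% of all probe sets. The deposited scaling gave 0, 3 and 2, beside 14.3%, 19.4% and 11.4%. These member shares lie below those of all probe sets, apart from the 6 of 49, which is slightly above.

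The measured differences were small, and most intervals excluded a 2-fold change. The 95% interval of the change lay within 2-fold up or down for 45, 47 and 48 of the 49 members in the 3 comparisons, with a median half-width of 0.38 on the log2 scale. The exceptions were Rpl39, Rps4y2 and the dimmer probe sets of Rpl14 and Rps24. Member probe sets were also more even between arrays of a group than most. Their median within-group SD was 0.15 on the log2 scale, against 0.31 for all probe sets tested. It was 0.20 for the 1029 other probe sets with a mean signal above 2000. Of the 50 member probe sets, 39 had a mean signal above 2000, but member values are over all 49 tested. The interval limits are for single genes, and the median half-width exceeds the size of the median member change in each comparison.

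Burn-CLP against Sham-Sham asks what a burn with CLP altered in liver. Here 42 of the 49 member probe sets had a positive change, with a median of 0.13 on the log2 scale, a fold of 1.10. Over all probe sets tested 50.8% were positive and the median was 0.0089. The deposited scaling gave 43 of 49 and a median of 0.16, beside 50.0% and -0.00031. After centring each array on its median, 44 of 49 were positive and the member median exceeded the overall one by 0.16. The direction was the same under all 3 scalings for 42 positive and 5 negative members.

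**Figure D1:**
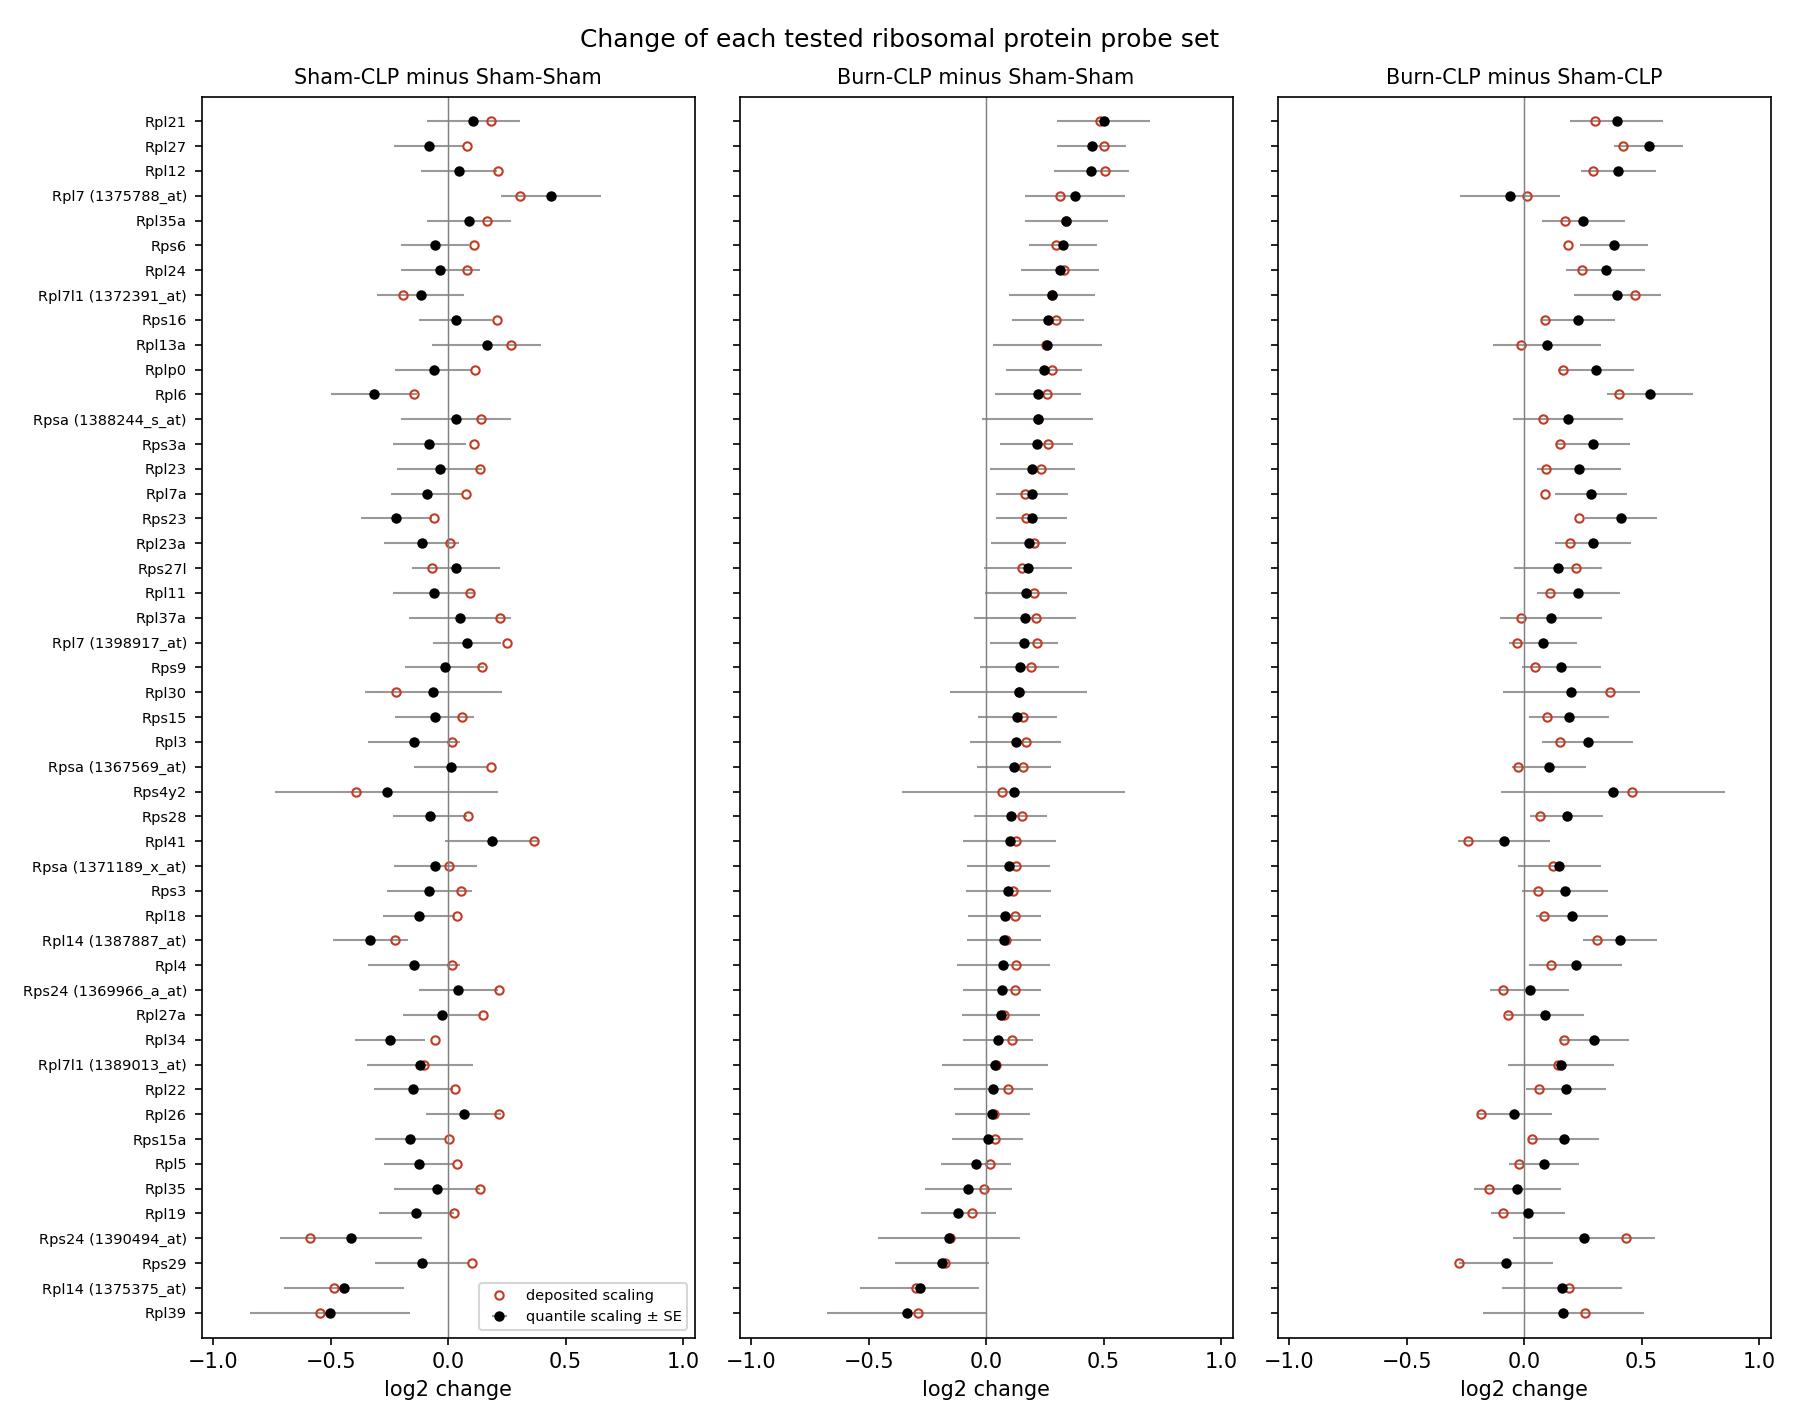
Log2 change of each of the 49 tested member probe sets in the 3 comparisons, ordered by the change in Burn-CLP against Sham-Sham. Filled points with bars are the quantile scaling with its SE, open points the deposited scaling; 42 filled points lie right of 0 in the middle panel, while in the left panel the open points lie mostly right and the filled points mostly left of 0.

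Rpl27, a protein of the large subunit, had the smallest p of all members. It read 3840, 4229 and 4415 in Sham-Sham, 3829, 3851 and 4106 in Sham-CLP, and 5687, 5822 and 5509 in Burn-CLP. Every Burn-CLP array lay above all 6 others. The change against Sham-Sham was 0.45 ± 0.15 (SE, n = 3 and 3; limma adjusted p = 0.157), and with the deposited scaling 0.50 ± 0.16 (limma adjusted p = 0.159).

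Rpl12, which forms the base of the ribosomal stalk where elongation factors bind, showed the same order. Its signals were 4191, 4054 and 4221 in Sham-Sham, 4482, 4309 and 4091 in Sham-CLP, and 5493, 6559 and 5052 in Burn-CLP. The Burn-CLP arrays did not overlap with either other group, and Burn-CLP 2 was the highest. Against Sham-Sham the change was 0.45 ± 0.16 (limma adjusted p = 0.180).

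Rps6 is the small-subunit protein that the S6 kinases phosphorylate. It read 8536, 8470 and 8418 in Sham-Sham, 8047, 8332 and 8075 in Sham-CLP, and 10338, 11297 and 10288 in Burn-CLP. These are tight groups, with an SD of 59.0 around a mean of 8475 in Sham-Sham and of 569 around 10641 in Burn-CLP, and they do not overlap. The change of 0.33 ± 0.14 (limma adjusted p = 0.248) became 0.30 ± 0.15 with the deposited scaling (limma adjusted p = 0.315).

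Rpl21 and Rpl24 are large-subunit proteins, the latter part of a bridge to the small subunit. Rpl21 signals were 2407, 2019 and 1825 in Sham-Sham and 2377, 3395 and 3112 in Burn-CLP, a change of 0.50 ± 0.20 (limma adjusted p = 0.211). Burn-CLP 1 fell within the Sham-Sham range. For Rpl24 the Sham-Sham arrays read 3251, 3209 and 2617 and the Burn-CLP arrays 3515, 3880 and 3851, without overlap, and the change was 0.31 ± 0.17 (limma adjusted p = 0.323).

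Rplp0, the stalk protein also widely used as a reference gene in quantitative PCR, read 6204, 6730 and 5874 in Sham-Sham, 6226, 5745 and 6040 in Sham-CLP, and 6504, 8470 and 7423 in Burn-CLP. Burn-CLP 1 lay between Sham-Sham arrays. The difference of 0.25 ± 0.16 against Sham-Sham did not pass (limma adjusted p = 0.422), and its 95% interval ran from -0.12 to 0.61. With the deposited scaling Burn-CLP 1, at 6320, lay just above the highest Sham-Sham array, at 6308.

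**Figure D2:**
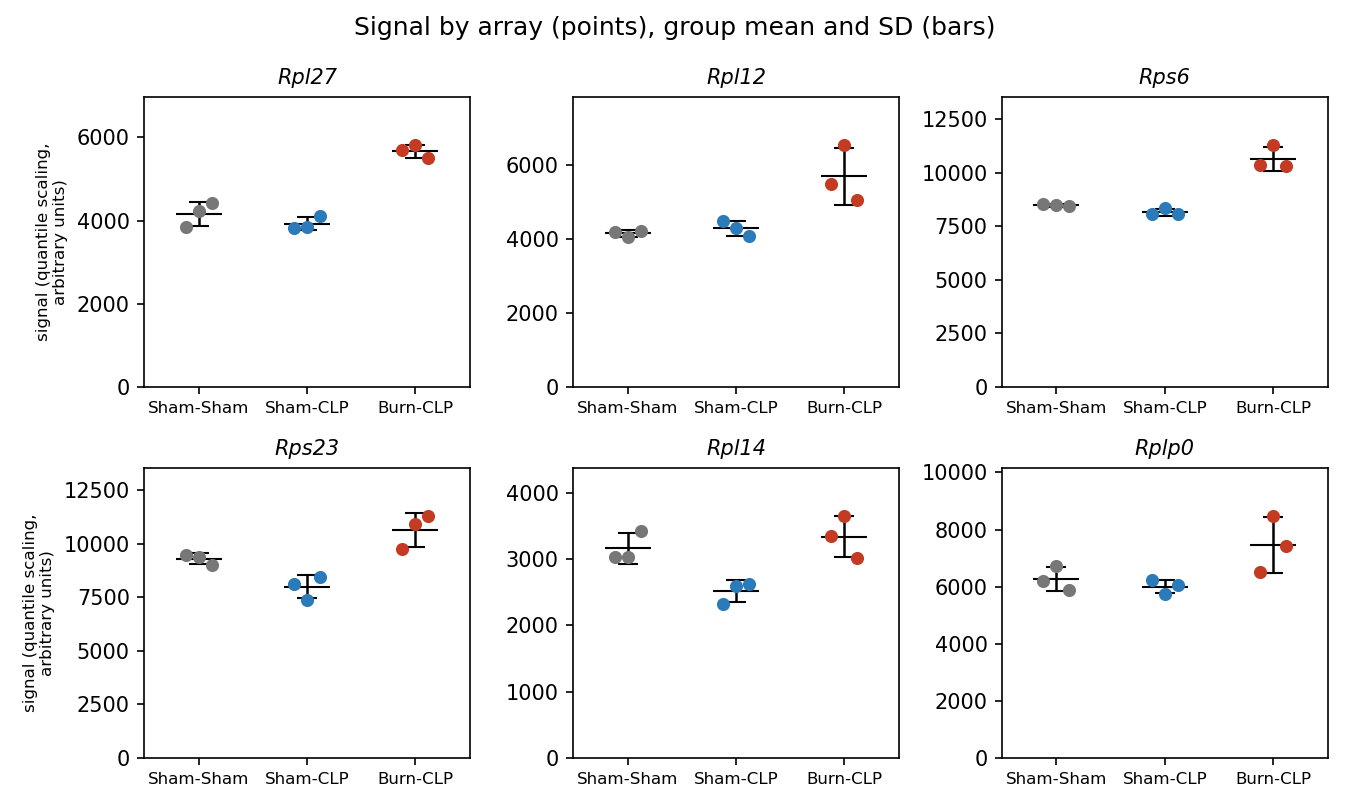
Quantile-scaled signal in arbitrary units of 6 member probe sets on each array (points), with the group mean and SD (bars, n = 3) and axes from 0. Rpl27, Rpl12 and Rps6 separate Burn-CLP from both other groups; Rps23 and Rpl14 have their lowest signals in Sham-CLP, where Rps23 read 7398 to 8444 and Rpl14 2324 to 2629.

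Counting members whose groups did not overlap gave 9 higher and 0 lower in Burn-CLP against Sham-Sham, 18.4% of members, beside 11.0% of all probe sets higher and 10.5% lower. The deposited scaling gave 10 higher and 0 lower, beside 11.2% and 9.92%. Non-overlap in both scalings held for 7 probe sets, of Rpl12, Rpl24, Rpl27, Rps16, Rps6 and both of Rpl7.

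The median change was positive for both subunits, which were read on the same arrays, and neither median was tested. The median change against Sham-Sham was 0.15 over the 32 large-subunit probe sets, 27 of them positive, and 0.12 over the 17 small-subunit ones, 15 of them positive. A further 34 probe sets join a ribosomal protein symbol with others in the annotation and were not counted as members. None of these is named, and 30 of 34 were positive with a median of 0.15. The 1029 other bright probe sets had a median of -0.024, with 47.6% of them positive.

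The shift was uneven among the Burn-CLP arrays. On each array the member probe sets were set against their own means over 9 arrays, and the median of these deviations was 0.024, 0.23 and 0.065 on Burn-CLP 1, 2 and 3. In Sham-Sham it was 0.014, -0.074 and -0.022, so Burn-CLP 1 stood close to Sham-Sham 1. On Burn-CLP 2, 44 of 49 members exceeded their mean, against 29 on Burn-CLP 1 and 37 on Burn-CLP 3. Without Burn-CLP 2 the median change against Sham-Sham was 0.079, with 36 of 49 positive.

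**Figure D3:**
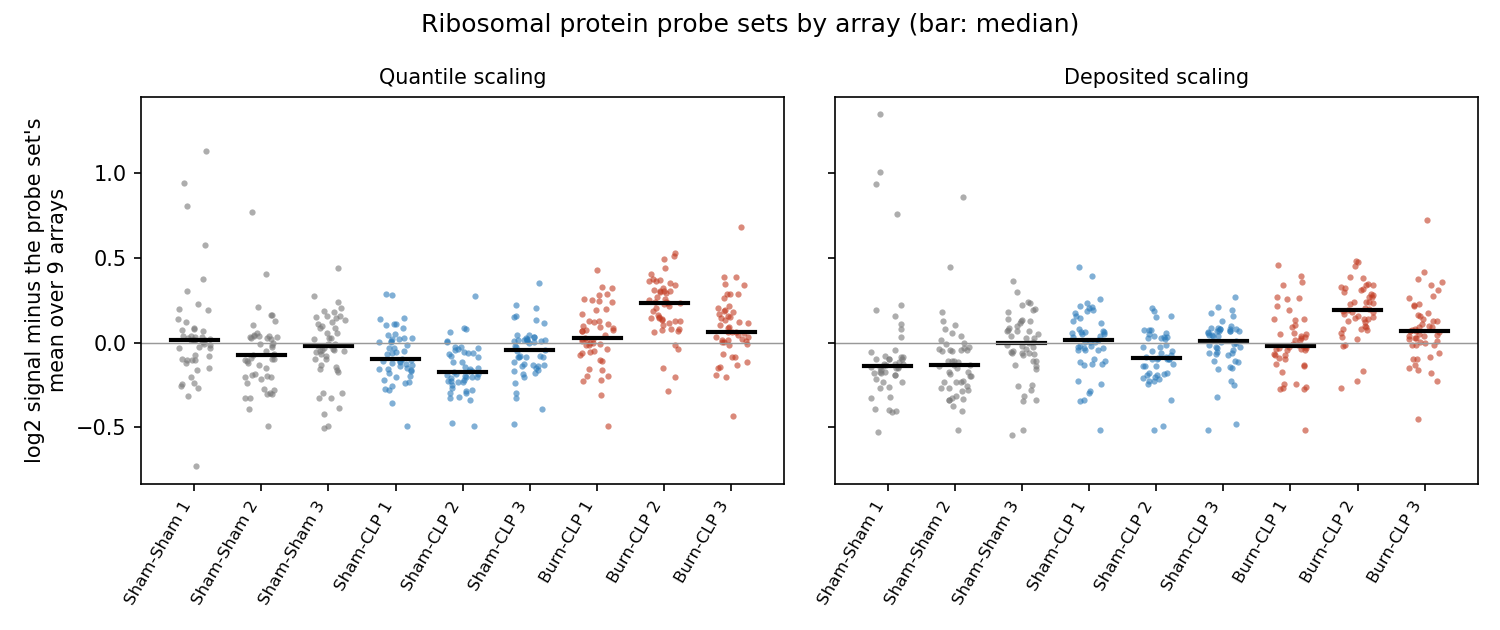
Log2 signal of each tested member probe set minus its own mean over the 9 arrays, by array, with the median as a bar, for the quantile scaling (left) and the deposited scaling (right). Burn-CLP 2 is highest in both panels, at 0.23 and 0.19, and Sham-Sham 1 moves from 0.014 to -0.14 between them.

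As a share of the summed deposited signal of all probe sets, the tested members made up 1.85% ± 0.115 in Sham-Sham, 1.88% ± 0.0717 in Sham-CLP and 2.06% ± 0.145 in Burn-CLP (SD, n = 3 arrays each). By array the shares were 1.79%, 1.78% and 1.98% in Sham-Sham and 1.92%, 2.21% and 2.05% in Burn-CLP. Sham-Sham 3 thus exceeded Burn-CLP 1, and the groups overlapped.

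Sham-CLP against Sham-Sham asks what CLP altered without a burn. The direction of the family here depended on the scaling. With the quantile scaling 14 of 49 members were positive and the median change was -0.062, beside 50.5% and 0.0049 over all probe sets. With the deposited scaling 37 of 49 were positive with a median of 0.082, while 41.2% of all probe sets were positive and the overall median was -0.081. Median centring gave 43 of 49 and a median of 0.29, with the overall median at 0.11.

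Of the 49 members 25 had opposite signs in the quantile and deposited scalings. Bright probe sets in general behaved this way: the 1029 bright non-members had a median of 0.0065 with the quantile scaling and 0.15 with the deposited one. Deposited array medians were 205 to 212.4 in Sham-CLP and 215.1, 244.5 and 268.1 in Sham-Sham. The sign of the family's change was therefore not settled. Relative to the bright non-members, the member median was lower under all 3 scalings, since after median centring theirs was 0.36 and that of the members 0.29. The members were taken at all signal levels, and this difference was not tested.

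Members whose groups did not overlap were found in both directions. With the quantile scaling 2 of 49 (4.08%) were higher, both of them probe sets of Rpl7, beside 8.10% of all probe sets. Another 5 of 49 were lower, beside 8.65%. In the deposited scaling 6 of 49 (12.2%) were higher and 2 of 49 lower, beside 7.01% and 11.9%. The 5 lower ones were Rpl14, Rpl34, Rpl5, Rps23 and Rps6, and only Rpl14 kept this with the deposited scaling.

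Rpl14, a large-subunit protein, read 3036, 3029 and 3430 in Sham-Sham, 2324, 2596 and 2629 in Sham-CLP, and 3352, 3652 and 3025 in Burn-CLP on its bright probe set (1387887_at). Sham-CLP was low against both other groups. Its change against Sham-Sham was -0.33 ± 0.16 (limma adjusted p = 0.453) and, with the deposited scaling, -0.23 ± 0.17 (limma adjusted p = 0.546). The other Rpl14 probe set (1375375_at) read 45.4, 26.5 and 39.3 in Sham-CLP, all under the floor, and 53.5, 126 and 82.3 in Sham-Sham.

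Rpl34, of the large subunit, and Rps23, which sits in the decoding centre of the small subunit, were also lowest in Sham-CLP. Rpl34 signals were 4792, 4539 and 5016 in Sham-Sham against 3821, 3962 and 4312 in Sham-CLP, a change of -0.25 ± 0.15 (limma adjusted p = 0.533). Rps23 gave 9495, 9399 and 9009 against 8145, 7398 and 8444, a change of -0.22 ± 0.15 (limma adjusted p = 0.578). In the deposited scaling these were -0.056 and -0.061, and median centring turned both positive, at 0.15.

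Rpl7, of the large subunit, had no overlap between Sham-Sham and either CLP group on both of its probe sets, but no change passed the test. The dimmer one (1375788_at) read 265, 417 and 435 in Sham-Sham, 467, 532 and 482 in Sham-CLP, and 521, 460 and 442 in Burn-CLP. Sham-Sham 1 was far below the rest, and the change of 0.44 ± 0.21 did not pass (limma adjusted p = 0.455). The brighter one (1398917_at) read 5391, 5538 and 5525 in Sham-Sham, 6015, 5687 and 5687 in Sham-CLP, and 5797, 6443 and 6179 in Burn-CLP. Its changes were smaller, at 0.079 ± 0.14 in Sham-CLP and 0.16 ± 0.14 in Burn-CLP (limma adjusted p = 0.847 and 0.552). In both probe sets, every CLP array lay above every Sham-Sham array.

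Burn-CLP against Sham-CLP asks what the burn added to CLP. With the quantile scaling 44 of 49 members were positive and the median was 0.19, beside 52.4% and 0.019 over all probe sets. In the deposited scaling 37 of 49 were positive with a median of 0.11, but so were 64.0% of all probe sets, whose median was also 0.11. The member median then exceeded the overall one by -0.0016, and after median centring by -0.016, with 19 of 49 members positive. The excess of the members over all probe sets was thus present with quantile normalization and not with the other scalings. Against the 1029 bright non-members the members were higher under all 3: those had medians of -0.028 with the quantile scaling, -0.16 with the deposited one and -0.32 after median centring, where the member medians were 0.19, 0.11 and -0.046. The members were again taken at all signal levels, and their difference from the bright probe sets was not tested.

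Non-overlapping groups numbered 17 higher and 0 lower with the quantile scaling, beside 9.61% and 9.22% of all probe sets. In the deposited scaling they numbered 9 and 0, beside 15.7% and 7.37%. The 9 were the probe sets of Rpl12, Rpl14, Rpl24, Rpl27, Rpl34, Rpl6, Rpl7l1, Rps23 and Rps6, and all of them were among the 17.

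Rpl6, a large-subunit protein, had the next smallest p after Rpl27. It read 5255, 4987 and 4882 in Sham-CLP, 7292, 8347 and 6420 in Burn-CLP, and 5169, 6861 and 6969 in Sham-Sham. Sham-CLP and Burn-CLP did not overlap, while Sham-Sham covered much of the range between them. The change was 0.54 ± 0.18 (limma adjusted p = 0.437) and 0.41 ± 0.20 with the deposited scaling (limma adjusted p = 0.468).

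Rpl27 differed by 0.53 ± 0.15 in this comparison (limma adjusted p = 0.363), and by 0.42 ± 0.16 with the deposited scaling (limma adjusted p = 0.389). Rps23, at 9740, 10922 and 11297 in Burn-CLP, differed by 0.41 ± 0.15 (limma adjusted p = 0.464), which became 0.23 ± 0.16 with the deposited scaling. Rpl14 differed by 0.41 ± 0.16 (limma adjusted p = 0.490) and 0.31 ± 0.17 with the deposited scaling. The 2 comparisons with Sham-CLP share its arrays, so a low Sham-CLP signal enters both.

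Rpl7l1, the Rpl7 paralog, is measured by a pair of probe sets that differed. On 1372391_at it read 584, 435 and 521 in Sham-Sham, 438, 476 and 498 in Sham-CLP, and 712, 632 and 527 in Burn-CLP, a change of 0.40 ± 0.18 against Sham-CLP (limma adjusted p = 0.564). On 1389013_at the Burn-CLP arrays read 1240, 1341 and 770 against 952, 1040 and 934, with Burn-CLP 3 below all Sham-CLP arrays, and the change was 0.16 ± 0.23.

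**Figure D4:**
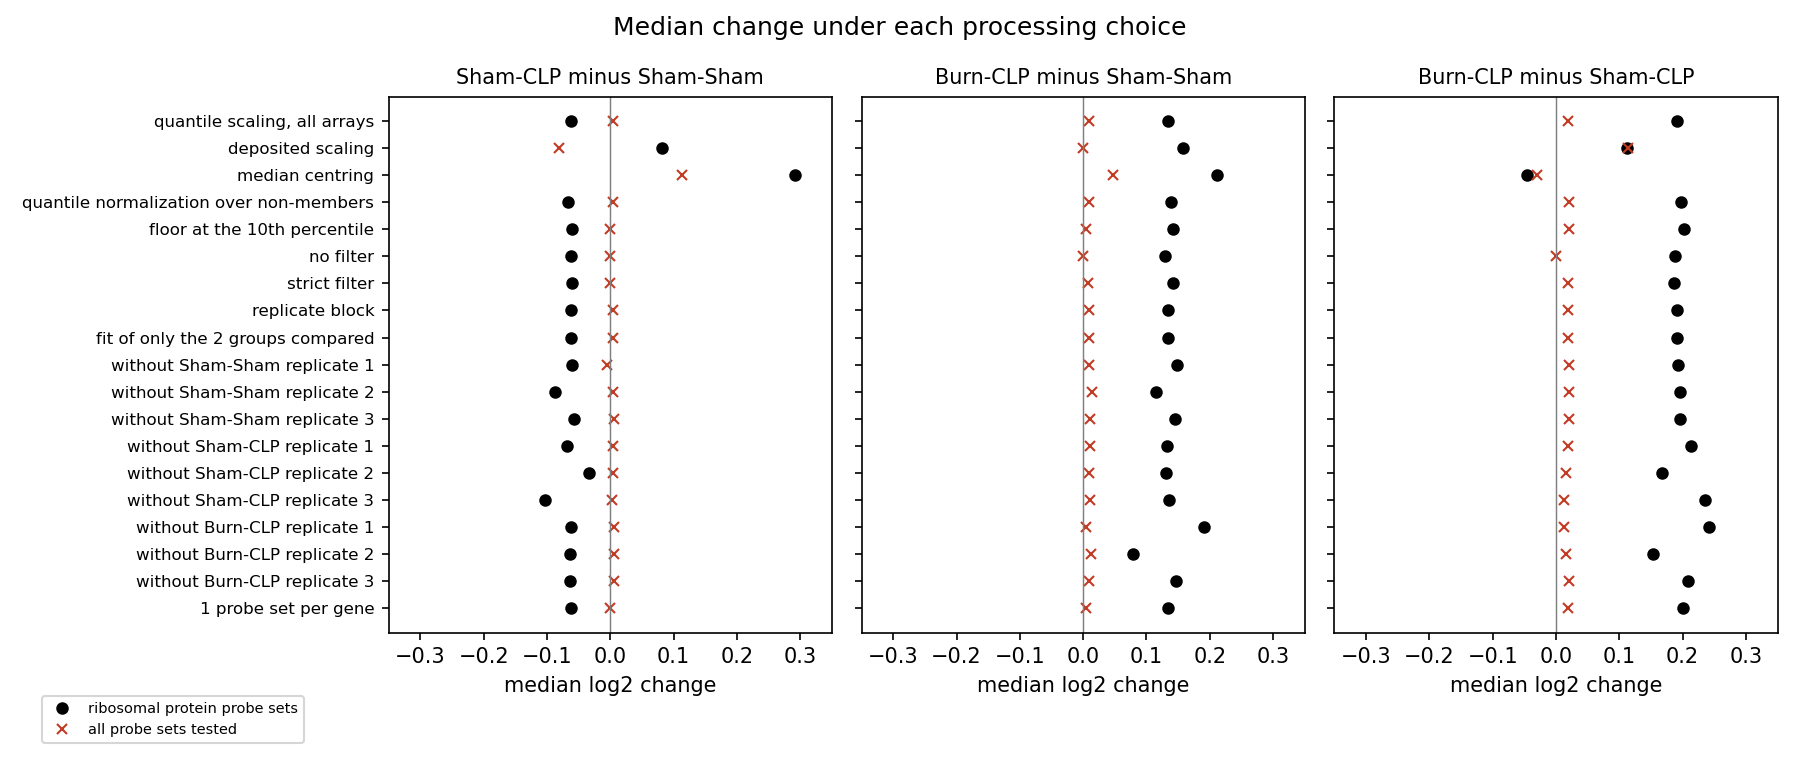
Median log2 change of the member probe sets (points) and of all probe sets tested (crosses) in each comparison under each processing choice and with each array left out. In Burn-CLP against Sham-Sham the members lie right of the crosses in every line, from 0.079 without Burn-CLP 2 to 0.21 with median centring; in the other comparisons the first 3 lines differ.

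Members with roles outside the ribosome had small differences. Rpl5 and Rpl11 form a complex with 5S ribosomal RNA that can bind Mdm2 and so stabilise p53. Rpl5 read 6240, 6318 and 6705 in Sham-Sham, 6040, 5435 and 6199 in Sham-CLP, and 6002, 6528 and 6186 in Burn-CLP. Rpl11 read 4534, 3690 and 4375, then 3908, 3812 and 4335, then 3976, 5296 and 4948. Burn-CLP overlapped with Sham-Sham in both, and their changes against Sham-Sham were -0.042 ± 0.15 and 0.17 ± 0.18 (limma adjusted p = 0.901 and 0.615).

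Rps27l, a p53-inducible paralog of Rps27, read 394, 511 and 462 in Sham-Sham, 428, 480 and 487 in Sham-CLP, and 425, 525 and 605 in Burn-CLP. All groups overlapped, and the change in Burn-CLP against Sham-Sham was 0.18 ± 0.19 (limma adjusted p = 0.619). Rps3, which lines the entry of the messenger RNA channel, read 4100, 3060 and 3372 in Sham-Sham and 3749, 4113 and 3341 in Burn-CLP, again overlapping.

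Rpl3, which reaches into the peptidyl transferase centre, read 6420, 6427 and 6081 in Sham-Sham, 5464, 5493 and 6186 in Sham-CLP, and 6064, 9054 and 5930 in Burn-CLP. The single high array was Burn-CLP 2, and the other Burn-CLP arrays lay below all Sham-Sham arrays. The fitted change of 0.13 ± 0.19 (limma adjusted p = 0.748) became -0.073 without it.

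Rpsa, a small-subunit protein also known as the laminin receptor, has 3 probe sets. Their changes in Burn-CLP against Sham-Sham were 0.12 ± 0.16 on 1367569_at, 0.22 ± 0.24 on 1388244_s_at and 0.096 ± 0.18 on 1371189_x_at, with limma adjusted p of 0.704, 0.629 and 0.790. On 1388244_s_at the Sham-Sham arrays alone ran from 2293 to 3733. The suffixes of the latter pair mark probes that can bind more than one transcript.

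The brightest members were Rps29 and Rpl7a. Rpl7a, of the large subunit, read 10201, 11254 and 10574 in Sham-Sham, 9740, 9335 and 11113 in Sham-CLP, and 11800, 12863 and 12013 in Burn-CLP, where all arrays exceeded the rest, for a change of 0.20 ± 0.15 against Sham-Sham (limma adjusted p = 0.494). In the deposited scaling Rpl7a overlapped, since Burn-CLP 1 then read 10721 and Sham-Sham 2 10996. Rps29, a small-subunit protein, read 12316, 11699 and 17066 in Sham-Sham and 11297, 12452 and 11853 in Burn-CLP. It was among the 5 members that were lower in Burn-CLP than in Sham-Sham under all 3 scalings, with Rpl19, Rpl39 and the dim probe sets of Rpl14 and Rps24.

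Members were also split by whether a run of at least 8 C or T lay anywhere in the window of 60 bases around the annotated start. Such a run need not span the start. Rpl12, whose run of 7 spans it, was counted among the genes without one. In Burn-CLP against Sham-Sham the 32 probe sets of genes with a run of at least 8 had a median of 0.10, with 26 positive, and the 11 without one had 0.18, all positive. The deposited scaling gave 0.13 and 0.20. In Sham-CLP against Sham-Sham the medians were -0.059 with a run and -0.080 without, and 0.082 and 0.038 with the deposited scaling. In Burn-CLP against Sham-CLP they were 0.18 and 0.27, and 0.088 and 0.15. These differences were not tested.

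Other genes of the translation machinery were taken from lists of gene names, and limma called none of them in any comparison under either scaling. Initiation factors, which load ribosomes onto messenger RNAs, had 38 probe sets for 33 of 39 genes. Their median change in Burn-CLP against Sham-Sham was 0.15, with 29 positive and 3 at an unadjusted p under 0.05; over all probe sets those shares were 50.8% and 19.9%. Without Burn-CLP 2 it was 0.057 and without Burn-CLP 3 it was 0.29. Eif3m, a subunit of the factor that holds the small subunit, read 1983, 1707 and 1576 in Sham-Sham, 1983, 1725 and 1751 in Sham-CLP, and 2363, 2737 and 2042 in Burn-CLP. Its change was 0.44 ± 0.18 (limma adjusted p = 0.221). Eif4e, which binds the messenger RNA cap, read 238, 252 and 182 in Sham-Sham and 83.7, 152 and 162 in Sham-CLP, a change of -0.80 ± 0.30 (limma adjusted p = 0.379).

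Genes of ribosome assembly and ribosomal RNA synthesis had 51 probe sets for 45 of 60 genes and a larger shift than the ribosomal proteins. In Burn-CLP against Sham-Sham their median was 0.32, with 39 positive, and 16 of 51 had an unadjusted p under 0.05, all positive, beside 50.8% and 19.9% of all probe sets. The deposited scaling gave 0.33, with 38 positive and 17 at that p, beside 50.0% and 19.4%. Against Sham-CLP the medians were 0.36 and 0.45 in the 2 scalings, with 44 and 47 positive, beside 52.4% and 64.0% of all probe sets. Fbl, the nucleolar methyltransferase fibrillarin, read 430, 441 and 378 in Sham-Sham, 378, 375 and 398 in Sham-CLP, and 656, 681 and 486 in Burn-CLP. All Burn-CLP arrays lay above the rest, and the change against Sham-Sham was 0.53 ± 0.18 (limma adjusted p = 0.161). Ddx56, a nucleolar helicase, read 38.1, 99.9 and 170 in Sham-Sham, 369, 407 and 298 in Sham-CLP, and 307, 414 and 181 in Burn-CLP. Its change in Burn-CLP against Sham-Sham was 1.46 ± 0.38 (limma adjusted p = 0.0983), with 1 Sham-Sham array at the floor.

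These lists differed from the ribosomal proteins in the arrays that were high. The median deviation of the assembly list was 0.39, 0.52 and -0.15 on Burn-CLP 1, 2 and 3, and that of the initiation factors 0.21, 0.34 and -0.16. The ribosomal proteins had 0.024, 0.23 and 0.065. Burn-CLP 2 was thus high in all 3 lists, Burn-CLP 1 in the assembly and initiation lists, and Burn-CLP 3 in neither of those. Without Burn-CLP 3, where this list was low, the assembly list's median against Sham-Sham was 0.62 with 42 positive. In that fit 2 of its genes, Rrp15 and Rrs1, were called. Rrp15 lay at the floor on all Sham-Sham arrays, so its change depends on the floor. Without Burn-CLP 2 the median was 0.22. Without Sham-Sham 3, where Ddx56 had its highest Sham-Sham signal of 170, Ddx56 was called in both comparisons with Sham-Sham. Its signal of 38.1 on Sham-Sham 1 lay under the floor. In the same fit Eif2b5, of the initiation list, was called in Burn-CLP against Sham-Sham. The share of all probe sets called in the fits with an array left out is not given here. These calls are therefore not read as a result about the lists.

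The other lists had medians closer to 0. Elongation and release factors had 17 probe sets with a median of 0.031 in Burn-CLP against Sham-Sham, with 10 positive and 1 at an unadjusted p under 0.05. That was Pelo, which rescues stalled ribosomes and differed by -0.80 ± 0.23 (limma adjusted p = 0.130). Eef1b2, an exchange factor of elongation, differed by 0.33 ± 0.18 (limma adjusted p = 0.336). Genes that control ribosomal protein messenger RNAs, with the S6 kinases, had 32 probe sets, a median of 0.040, 20 positive and 3 at an unadjusted p under 0.05. Rps6kb1, the main kinase of Rps6, read 152, 62.1 and 103 in Sham-Sham, 271, 232 and 230 in Sham-CLP, and 173, 248 and 231 in Burn-CLP, a change of 1.10 ± 0.29 in Burn-CLP against Sham-Sham (limma adjusted p = 0.104). Ddit4, an inhibitor of mTOR, read 33.4, 233 and 115 in Sham-Sham and 584, 3355 and 365 in Burn-CLP, with Burn-CLP 2 far above the rest, for 2.90 ± 0.77 (limma adjusted p = 0.102). In both genes 1 Sham-Sham array lay under the floor of 64.3 and entered the fit at that value, so these sizes depend on the floor.

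Mitochondrial ribosomal proteins, which belong to a separate ribosome, had 81 tested probe sets for 71 genes. Their medians were 0.0058, 0.0065 and -0.047 in the 3 comparisons, with 42, 42 and 36 positive and 4, 10 and 5 at an unadjusted p under 0.05. Beside 11.7%, 19.9% and 9.09% of all probe sets, these counts of 81 are smaller shares in each comparison. Mrps9 read 422, 442 and 417 in Sham-Sham, 282, 265 and 291 in Sham-CLP, and 281, 254 and 180 in Burn-CLP, a change of -0.87 ± 0.19 in Burn-CLP against Sham-Sham (limma adjusted p = 0.0686). Mrps27 differed by -0.87 ± 0.27 (limma adjusted p = 0.141).

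**Figure D5:**
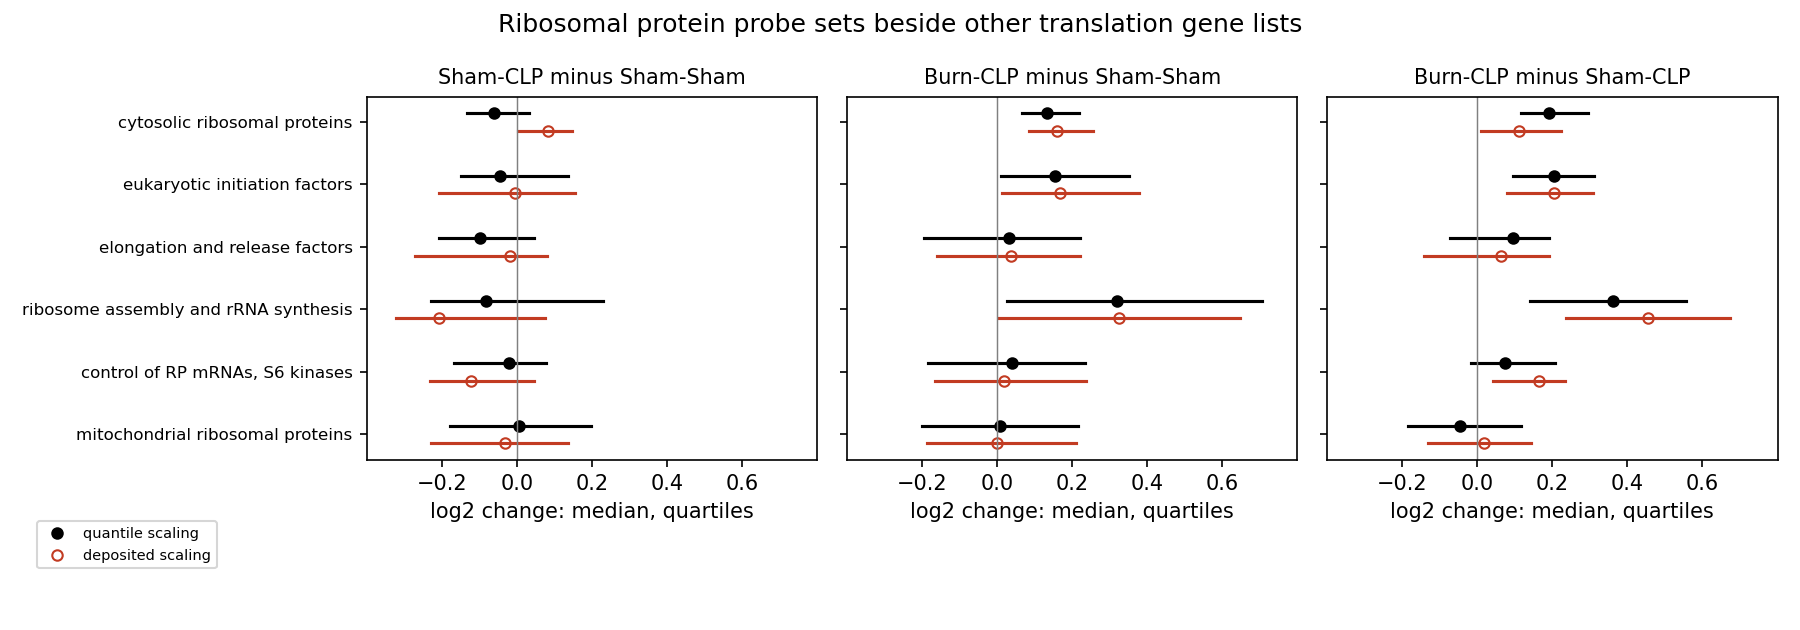
Median (points) and quartiles (lines) of the log2 change over the probe sets of each list, for the quantile scaling (filled) and the deposited scaling (open). In Burn-CLP against Sham-Sham the cytosolic ribosomal proteins sit at 0.13 and 0.16, the assembly list at 0.32 and 0.33, and the mitochondrial ribosomal proteins at 0.0065 and -0.00042.

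The 10 probe sets of 7 hepatocyte markers summed to between 177135 and 197916 on all 9 arrays with the quantile scaling, and none was called. That scaling gives every array the same distribution, which limits how far a sum of bright probe sets can vary. The median change of these markers depended on the scaling. In Sham-CLP against Sham-Sham it was 0.052, and 0.32 with the deposited scaling, where all 10 were positive beside 41.2% of all probe sets. In Burn-CLP against Sham-CLP it was -0.023 and, with the deposited scaling, -0.32. Of 4 neutrophil markers 2 were measured, and S100a9 was called in Burn-CLP against Sham-Sham, at 2.80 ± 0.40 (limma adjusted p = 0.0239), with 2 Sham-Sham arrays at the floor. The neutrophil sum ran from 46.6 to 159 in Sham-Sham, from 178 to 366 in Sham-CLP and from 317 to 1062 in Burn-CLP. Of 5 stellate cell and fibroblast markers Dcn was called, at 1.48 ± 0.21 (limma adjusted p = 0.0239), and their sums ran from 7027 to 7627, 4814 to 7161 and 4752 to 6789. Kupffer cell and macrophage markers, 4 of 6 measured, summed to 5967 to 6082, 5224 to 7184 and 6800 to 9652, with none called. The Burn-CLP sums were above those of Sham-Sham. By the median deviation of these markers the groups overlapped, with Burn-CLP 1 at -0.019 and Sham-Sham 3 at 0.15.

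None was called either among the measured markers of endothelium (4 of 5), bile duct (3 of 4), lymphocytes (6 of 6) and erythroid cells (2 of 3). In the order of the groups, endothelial sums ran from 2146 to 2456, 1555 to 2146 and 1570 to 2608. Bile duct sums ran from 791 to 1029, 739 to 808 and 745 to 1078. Lymphocyte sums ran from 1036 to 1478, 1019 to 1251 and 1206 to 1341, with a probe set each of Cd3d and Ptprc at the floor on all Sham-Sham arrays. Erythroid sums ran from 11412 to 14126, 10007 to 11467 and 8988 to 10500. The part of these cells in the ribosomal protein values was not tested.

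Against the other 8 arrays, Sham-Sham 1 correlated at 0.890 on average and Burn-CLP 2 at 0.922, and the remaining arrays at 0.935 to 0.949. The 5S ribosomal RNA control signal was 53.6, 104 and 168 for Sham-Sham, from 168 up to 234 for Sham-CLP, and from 181 up to 243 for Burn-CLP. The CLP groups overlapped, and Sham-Sham 3 matched the lowest Sham-CLP array. The ratio of 3′ to 5′ probe signal, a sign of RNA quality, was 1.32, 1.12 and 1.15 for GAPDH in Sham-Sham, 1.46, 1.19 and 1.22 in Sham-CLP, and 1.03, 0.991 and 1.12 in Burn-CLP. Burn-CLP thus lay below Sham-CLP without overlap, and Burn-CLP 2, the array with the highest ribosomal protein signals, was the lowest of all. For beta-actin the ratios were 1.29, 1.68 and 1.24, then 1.15, 1.19 and 1.26, then 1.77, 1.48 and 1.16, with the CLP groups overlapping. Here Burn-CLP 2, at 1.48, lay above all Sham-CLP arrays. For hexokinase the ratios ran from 0.746 to 8.21, both in Sham-CLP, with Burn-CLP 2 at 2.64. The part of these values in the results was not tested. Without Sham-Sham 1 the member median in Burn-CLP against Sham-Sham was 0.15.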

How the data were processed

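The deposited values are linear intensity signals, 1 for each probe set on each array. The authors had scaled them to a common trimmed mean, as the values show (500.1 to 500.2 after trimming 2% at each end). Array software and settings: not given in the sources used here.

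In all, 15923 probe sets were listed, 57 of them controls. Symbols came from the platform annotation, updated through RefSeq (GRCr8): 12783 probe sets had 1 symbol, 312 several and 2771 none. Of the members, Rpl37a and Rps9 kept the supplied symbol.

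Arrays were quantile normalized, values under the 20th percentile (64.3) were raised to it, and log2 was taken. Probe sets above the floor on at least 3 arrays were tested, with limma 3.58.1 in R 4.3.3 (lmFit, eBayes), 1 fit of all 9 arrays, and Benjamini-Hochberg adjustment over all 13535. The fit and the adjustment were checked on simulated arrays, and the scaling, floor and filter were not. With 3 arrays against 3 the smallest two-sided p of an exact permutation test is 0.1, and no such test was run. The number of arrays limits the precision.

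Named are the 12 members with the smallest moderated F p (no member was called), Rplp0, Rplp1, Rplp2, Rpsa, Rps6, Rps3, Rpl3, Rpl5, Rpl11 and the paralogs Rps27l, Rpl22l1, Rpl3l and Rpl39l where measured, the 2 highest and 2 lowest mean signals, and per other list its called probe sets or the 2 with the smallest F p; other names were chosen after their values were seen. The markers were of hepatocytes, Kupffer cells, endothelium, stellate cells, bile duct, lymphocytes, neutrophils and erythroid cells. Members, lists and rules were chosen with earlier results of these data known, so no list was given a p. Alternatives were the scaling, floor, filter, replicate block, a fit of 2 groups, 1 probe set per gene and leaving out each array; joined-symbol probe sets were added after seeing the data.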

Additional observations from a re-analysis of the deposited data

How the results depend on the processing

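No member was called under any alternative run except when no filter on low signals was used, which gave 2 calls in Burn-CLP against Sham-Sham. These were Rpl27 (0.45 ± 0.059, limma adjusted p = 0.0376) and Rps6 (0.33 ± 0.041, limma adjusted p = 0.0359). That setting adds probe sets held at the floor on nearly all arrays. With the filter the SE was 0.15 for Rpl27 and 0.14 for Rps6. Their own within-group SDs were 0.072 and 0.047 on the log2 scale. limma moves each SE towards the spread of all probe sets in the fit, so these calls depend on which are included. The median change of the members moved by more than the 0.079 SD of array medians within groups for Sham-CLP against Sham-Sham with the deposited scaling (0.082) and median centring (0.29), and for Burn-CLP against Sham-CLP with the same settings (0.11 and -0.046). Leaving out each array in turn gave medians from -0.10 to -0.034 for Sham-CLP against Sham-Sham, 0.079 to 0.19 for Burn-CLP against Sham-Sham and 0.15 to 0.24 for Burn-CLP against Sham-CLP. The smallest adjusted p of a member in these fits was 0.108 and there were 0 calls. Without Sham-CLP 3 the first of these medians was -0.10 and without Sham-CLP 2 it was -0.034. Deviations of same-numbered arrays from different groups correlated between -0.026 and 0.081, and those of different-numbered arrays between -0.072 and 0.037. Whether replicate numbers pair the arrays was not tested. A fit with the replicate block gave 0 member calls and medians of -0.062, 0.13 and 0.19. For the named members, 5 of 405 values in Burn-CLP against Sham-Sham moved by more than the spread between replicates, against 29 in Sham-CLP against Sham-Sham and 26 in Burn-CLP against Sham-CLP, and 4, 40 and 12 changed sign. The cause was not tested.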
